A study of Lytechinus variegatus with 8 samples.

Results

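The germ-line and multipotency genes piwi, vasa and nanos were examined in spines of adult sea urchins, Lytechinus variegatus. Members were chosen by name: product descriptions were searched, ignoring case, for piwi, nanos, vasa or DDX4, the vertebrate name of vasa. Of 26814 annotated genes, 11 matched. By name, 5 of them are the intended genes: 2 are called piwi-like protein 1, 2 are called DDX4 and 1 is called nanos-like. The other 6 are the RNA helicases DDX41, DDX42, DDX43, DDX46, DDX47 and DDX49, which matched only because their names begin with the letters DDX4. They are kept as members of the rule and described apart.

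Messenger RNA was sequenced from 4 libraries of secondary spines, each made from 100 spines, and 4 libraries of primary spines, each made from 50 spines. All 8 came from 4 wild-caught, wild-type animals of the white-and-green color morph, each giving 1 library of either kind, and the library number marks the animal. Age and sex are not given in the sources used here. A library is a whole-spine extract, so fewer cells of a type and less RNA per cell cannot be told apart. The libraries held 9252184 to 10902546 counted reads. Of 19 genes named for spicule matrix or mesenchyme-specific surface proteins, which mark skeleton-forming cells of sea urchins, 16 had reads, and their summed level was 223.5 to 1407 CPM in secondary and 195.9 to 1100 CPM in primary libraries.

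Piwi proteins are Argonaute-family proteins that bind piRNAs, small RNAs that silence transposable elements in animal germ lines. Vasa is a DEAD-box RNA helicase of germ granules, and nanos is a zinc-finger protein that represses translation together with pumilio. In sea urchin embryos vasa and nanos mark the small micromeres, which contribute to the germ line, and in several invertebrates these genes are also active in somatic stem cells. No sequences are printed.

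Piwi and vasa transcripts were present in every spine library, and nanos-like transcripts were not detected in any. Levels between genes are compared in FPKM, reads scaled by the authors for gene length and library, and levels between libraries in CPM, counts per unit of library size after TMM scaling. The highest of the intended genes was piwi-like LOC121408762, on chromosome 2 from 68002300 to 68060134 of assembly Lvar_3.0, plus strand, whose closest deposited protein match is mouse PIWIL1. It averaged 21.8 ± 1.51 FPKM in secondary and 21.9 ± 0.767 FPKM in primary spines (SD, n = 4 each). Ranked among the 23786 genes with reads, that level lay at percentile 91.1 in secondary and 90.6 in primary spines. The median of those genes was 2.75 FPKM in secondary and 2.42 FPKM in primary spines.

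The second piwi-like gene, LOC121431753, lies on chromosome 18 from 4679023 to 4710140, plus strand, and is matched to human PIWIL2. It averaged 9.53 ± 3.45 FPKM in secondary and 9.29 ± 2.80 FPKM in primary spines, at percentiles 77.9 and 77.7. The vasa gene LOC121423730, on chromosome 11 from 11469760 to 11502873, averaged 7.41 ± 2.85 FPKM in secondary and 8.59 ± 2.02 FPKM in primary spines. The other vasa gene, LOC121424246, on the same chromosome from 7540434 to 7582010, averaged 2.37 ± 1.55 FPKM in secondary and 2.50 ± 1.24 FPKM in primary spines. Piwi-like LOC121408762, at 19.6 to 22.8 FPKM in secondary and 20.8 to 22.4 FPKM in primary libraries, was above the other 3 genes in all 8 libraries. LOC121431753 ranged from 6.07 to 13.4 FPKM in secondary and from 6.50 to 11.9 FPKM in primary libraries, which overlaps the 5.52 to 11.6 and 5.75 to 10.5 FPKM of LOC121423730. These 2 genes cannot be ranked against each other beyond their spread. LOC121424246, at 0.531 to 4.23 FPKM in secondary and 1.06 to 4.06 FPKM in primary libraries, lay below all 3 others.

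**Figure D1:**
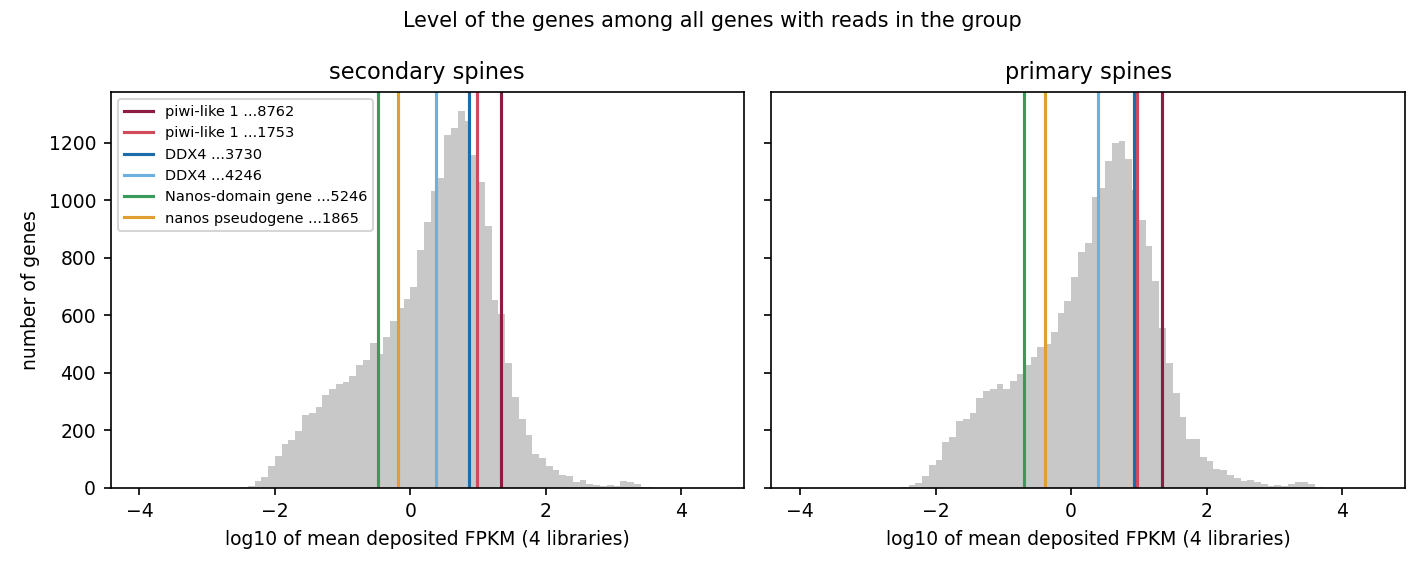
Number of genes (vertical axis) by log10 of the mean deposited FPKM of 4 libraries (horizontal axis), secondary spines left and primary spines right, with vertical lines for the genes named in the key by the last 4 digits of their ID. The line of piwi-like LOC121408762 stands to the right of the peak of all genes at 21.8 FPKM in secondary and 21.9 FPKM in primary spines, and the lines of the Nanos-domain gene and the nanos pseudogene stand left of all 4 piwi and vasa genes.

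The nanos-like gene LOC121408828, on chromosome 2 from 69605863 to 69607659, had 0 reads in all 8 libraries. A count of 0 allows up to 3 reads, which is 0.264 to 0.305 CPM in a secondary and 0.299 to 0.323 CPM in a primary library, for counting error only. Over the 4 libraries together the limit was 0.0721 CPM in secondary and 0.0786 CPM in primary spines. A low level of nanos below these limits was not detectable at this depth.

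Nanos also appears in the annotation of 3 genes that do not carry it in their product name. The uncharacterized gene LOC121425246, which has a Nanos RNA binding domain, had 1.84, 5.29, 1.59 and 1.93 CPM in secondary libraries 1 to 4, against 1.18, 1.20, 1.06 and 2.99 CPM in primary libraries 1 to 4. Secondary library 2 was the highest and the groups overlapped, so the log2 fold change of 0.72 ± 0.56 (SE) did not pass the test (edgeR adjusted p = 0.599). LOC121421865, a pseudogene matched to zebrafish nanos1, averaged 1.94 ± 0.679 CPM in secondary and 1.21 ± 0.392 CPM in primary spines (edgeR adjusted p = 0.517). LOC121409552, matched to mouse Nanos2 but carrying a rhodanese-like domain, averaged 1.21 ± 0.775 CPM in secondary and 0.836 ± 0.351 CPM in primary spines (edgeR adjusted p = 0.810). All 3 lay at or below percentile 28.6 of genes with reads in either spine kind.

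Between the spine kinds, none of the 10 members that passed the filter on low counts was called, where 7.81% of the 16788 tested genes were called and 5.88% of the 16788 were called higher in secondary spines (edgeR quasi-likelihood test, Benjamini-Hochberg adjusted p below 0.05, two-sided). That fit does not use the pairing of libraries by animal. With the animal as a replicate block, 1 of the 10 was called, DDX46, where that fit called 24.1% of tested genes. At an unadjusted p below 0.05 there was 1 member, and DESeq2 also called 1. Both are DDX46. DESeq2 called more of the 16788 tested genes than edgeR did, both higher and lower, so the 7.81% is not the background of its call. The share of all tested genes at an unadjusted p below 0.05 is not given here. None of these counts shows that members differed more often than other genes. Piwi-like LOC121408762 had 144.7, 162.4, 168.8 and 168.3 CPM in secondary libraries 1 to 4, against 152.2, 163.8, 163.5 and 162.6 CPM in primary libraries 1 to 4. Animal 1 was the lowest in both spine kinds, and the groups overlapped. The log2 fold change was 0.005, with a 95% interval of -0.21 to 0.22 (edgeR adjusted p = 0.994). It was negative in 10 of 21 alternative analyses.

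Piwi-like LOC121431753 had 18.1, 39.7, 21.8 and 34.1 CPM in secondary libraries 1 to 4, against 19.3, 35.4, 21.4 and 34.3 CPM in primary libraries 1 to 4. Within each animal the secondary and primary values lay close together, from a log2 difference of -0.09 in animal 1 to 0.16 in animal 2. The fitted log2 fold change was 0.04, with an interval of -0.67 to 0.75 (edgeR adjusted p = 0.979). With the animal as a replicate block the interval narrowed to -0.22 to 0.27, and the gene was still not called (edgeR adjusted p = 0.888). A gene on the opposite strand, LOC121431755, overlaps this one, but it held only 21 reads over all libraries.

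For vasa LOC121423730 the secondary libraries 1 to 4 had 19.6, 17.1, 34.5 and 16.2 CPM, against 30.7, 27.0, 25.6 and 17.0 CPM in primary libraries 1 to 4. Secondary spines were lower in animals 1, 2 and 4 and higher in animal 3. The log2 fold change was -0.20, with an interval of -0.86 to 0.46 (edgeR adjusted p = 0.828). Vasa LOC121424246 had 1.75, 13.8, 6.46 and 9.14 CPM in secondary libraries 1 to 4, against 3.44, 13.3, 7.17 and 8.76 CPM in primary libraries 1 to 4. Animal 1 was the lowest and animal 2 the highest in both spine kinds. The log2 fold change was -0.07, with a wide interval of -1.44 to 1.31 (edgeR adjusted p = 0.985). A p that misses the threshold does not show that the levels were equal. For this gene a 2-fold difference in either direction lies within that interval. With the animal as a replicate block the interval was -0.66 to 0.31, and LOC121424246 was still not called (edgeR adjusted p = 0.588). The blocked interval does not reach a 2-fold difference in either direction.

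**Figure D2:**
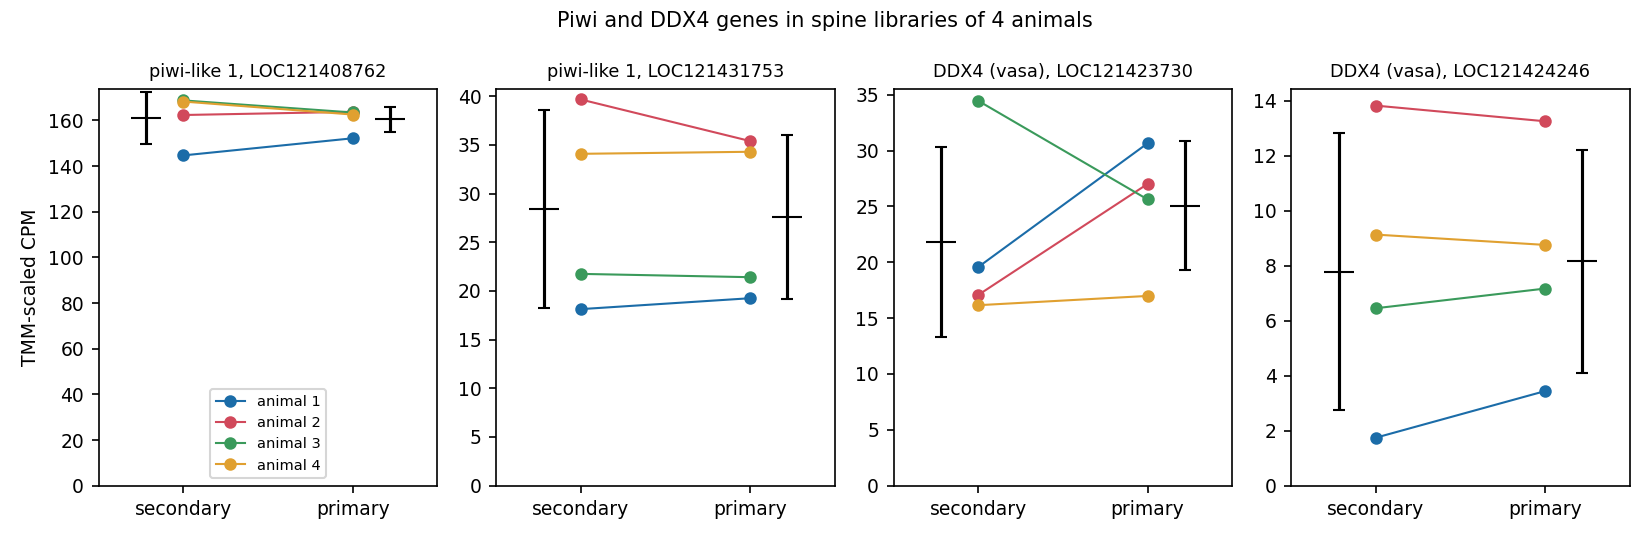
TMM-scaled CPM (vertical axis, starting at 0) of the 2 piwi-like and 2 vasa genes in secondary (left) and primary (right) libraries, with 1 line per animal and black bars for the mean ± SD of 4 libraries. Lines of LOC121408762 run together near 160 CPM in both spine kinds, while those of LOC121431753 and LOC121424246 stay apart by animal and are nearly level between the spine kinds.

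Among the 6 helicases that matched by their letters alone, DDX46, a splicing helicase, was the exception to the overlap. DDX46 LOC121431613 had 173.4, 159.7, 166.6 and 149.2 CPM in secondary libraries 1 to 4, against 67.9, 81.3, 132.4 and 109.2 CPM in primary libraries 1 to 4. All 4 secondary values were above all 4 primary values. The groups failed to overlap, in either direction, for 15.2% of tested genes. Its log2 fold change of 0.73 ± 0.20 missed the threshold (edgeR adjusted p = 0.0689). With the replicate block DDX46 was called higher in secondary spines, at 0.77 ± 0.18 (edgeR adjusted p = 0.0202), where that fit called 12.4% of tested genes higher. The adjusted p was 0.0140 in DESeq2, 0.0485 with scaling by library size, and 0.0244 without primary library 3. It was 0.0604 to 0.0881 with RLE scaling, no filter, limma and the length correction, and 0.101 to 0.163 on leaving out any other library, so DDX46 was not called there. The blocked call was lost without animal 2 (edgeR adjusted p = 0.0781).

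The other 5 helicases overlapped between the spine kinds, with edgeR adjusted p from 0.714 to 0.957. DDX42 LOC121426264, another splicing-related helicase, averaged 42.7 ± 7.92 CPM in secondary and 44.5 ± 10.6 CPM in primary spines. DDX41 LOC121425091, known in mammals for splicing and nucleic acid sensing, averaged 29.4 ± 9.30 CPM in secondary and 34.8 ± 13.5 CPM in primary spines. DDX47 LOC121422816, which acts in ribosome assembly, averaged 15.6 ± 4.17 CPM in secondary and 18.5 ± 3.39 CPM in primary spines. DDX43 LOC121430702, known in humans as a cancer-testis antigen, was next, at 13.4 ± 2.79 CPM in secondary and 14.8 ± 6.97 CPM in primary spines. DDX49 LOC121415246, whose yeast relative acts in ribosome assembly, had the lowest CPM, with 7.97 ± 1.88 CPM in secondary and 7.62 ± 1.31 CPM in primary spines.

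**Figure D3:**
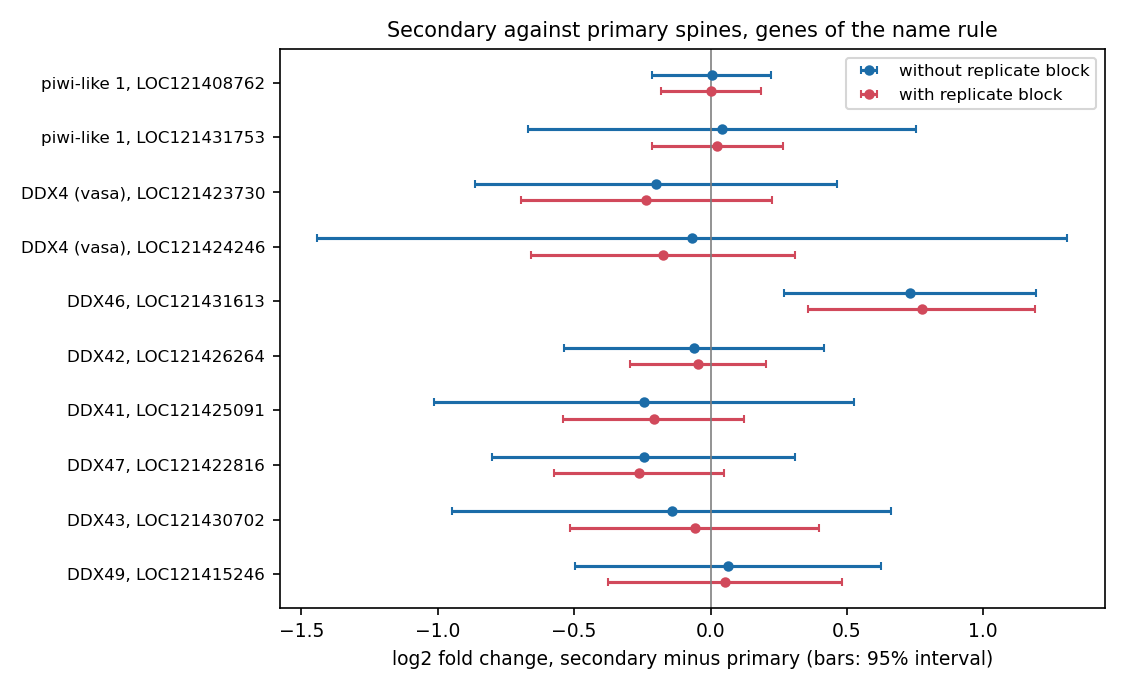
Log2 fold change, secondary minus primary, of the 10 tested members (horizontal axis), with 95% intervals, without the replicate block (blue) and with it (red). Intervals of 9 members include 0 in both fits, and DDX46, at 0.73 without and 0.77 with the block, lies above 0.

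Constancy across animals was examined gene by gene. Piwi-like LOC121408762 was close to constant: its coefficient of variation was 7.03% over secondary and 3.47% over primary libraries, where counting error alone gives 2.44% and 2.55%. Over all 8 libraries it was 5.14%, against a median of 32.8% for tested genes, and 28 of the 16788 tested genes (0.167%) had a lower one. This depends on the scaling: with scaling by library size the coefficient was 8.78% and 309 tested genes (1.84%) had a lower one, and with the deposited FPKM it was 5.09% and 24 genes (0.143%). The highest animal mean was 1.12 times the lowest, against a median ratio of 1.73 for tested genes. A test between animals did not call it (edgeR adjusted p = 0.543).

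Piwi-like LOC121431753 and vasa LOC121424246 differed between animals. Between animals, 2 of the 4 tested piwi and vasa genes and 5 of the 10 tested members were called, where 37.0% of all tested genes were. The animal means of LOC121431753 were 18.7, 37.5, 21.6 and 34.2 CPM for animals 1 to 4, so animals 2 and 4 stood above animals 1 and 3 (edgeR adjusted p = 0.00376). Its highest mean was 2.01 times its lowest, and 40.3% of tested genes had a ratio of 2 or more. The means of LOC121424246 were 2.59, 13.5, 6.81 and 8.95 CPM, a ratio of 5.22 between highest and lowest (edgeR adjusted p = 0.00454). A ratio of 4 or more was seen in 15.7% of tested genes. Both calls held when any 1 animal was left out, with edgeR adjusted p up to 0.0223 and up to 0.0395.

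Vasa LOC121423730 was not called between animals (edgeR adjusted p = 0.138), with animal means of 25.1, 22.1, 30.1 and 16.6 CPM. Here the spine kinds of an animal lay further apart, with a log2 difference, secondary minus primary, of -0.66 in animal 2 and 0.43 in animal 3. DDX41 (edgeR adjusted p = 0.0120), DDX42 (edgeR adjusted p = 0.0354) and DDX43 (edgeR adjusted p = 0.0489) were called between animals. Each of these 3 calls was lost when at least 1 animal was left out, with edgeR adjusted p up to 0.115 for DDX41, 0.235 for DDX42 and 0.104 for DDX43. DDX47 (edgeR adjusted p = 0.0546), DDX46 and DDX49 were not called between animals.

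Other genes, listed by product name as possible partners in the piRNA pathway, were also transcribed in spines. All 14 genes of a list of piRNA partners, tudor-domain proteins, maelstrom, the piRNA helicases and others, passed the filter, and their median level was 6.43 FPKM in secondary and 5.77 FPKM in primary spines. None was called between the spine kinds in either direction, where 7.81% of all tested genes were. Their median log2 fold change was -0.02, against -0.03 for all tested genes. With the replicate block 2 were called lower in secondary spines, where 11.7% of tested genes were. They are LOC121410302, which encodes an ASZ1-like ankyrin-repeat protein (-0.45, edgeR adjusted p = 0.0136), and maelstrom LOC121420310 (-0.48, edgeR adjusted p = 0.0424). Tudor domain-containing protein 3-like LOC121411608, on the list by its name only, had, with maelstrom, the highest mean FPKM of the list over both spine kinds. It averaged 49.7 ± 3.47 CPM in secondary and 50.3 ± 4.69 CPM in primary spines.

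Between animals, the piRNA partners were called about as often as other genes. Of the 14, 6 were called (42.9%, against 37.0% of all tested genes). Over the genes of all tested lists described here the share was 36.1%. By list it ran from 15.8% for the germ-line RNA regulators to 52.0% for the telomere genes. Maelstrom LOC121420310, a piRNA biogenesis factor, had 16.1, 46.5, 15.9 and 17.3 CPM in secondary libraries 1 to 4, against 22.9, 71.1, 16.0 and 28.9 CPM in primary libraries 1 to 4. Animal 2 stood above the others in both spine kinds (edgeR adjusted p = 0.00104 between animals). Chosen after their values were seen, 3 more genes show other orders of the animals. Tudor domain-containing protein 1-like LOC121410276, a piwi-binding scaffold, was highest in animal 4, at 71.1 CPM in secondary and 77.0 CPM in primary spines, and lowest in animal 2, at 30.1 CPM in secondary and 29.7 CPM in primary spines. A second gene of that name, LOC121424965, was lowest in animal 3, at 7.85 CPM in secondary and 8.02 CPM in primary spines. The mitochondrial cardiolipin hydrolase-like gene LOC121422441, whose mouse and fly relatives act in piRNA biogenesis, was highest in animal 1, at 26.3 CPM in secondary and 36.6 CPM in primary spines. Since these 3 genes were chosen after their values were seen, they do not describe how the animals ranked over the whole list.

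**Figure D4:**
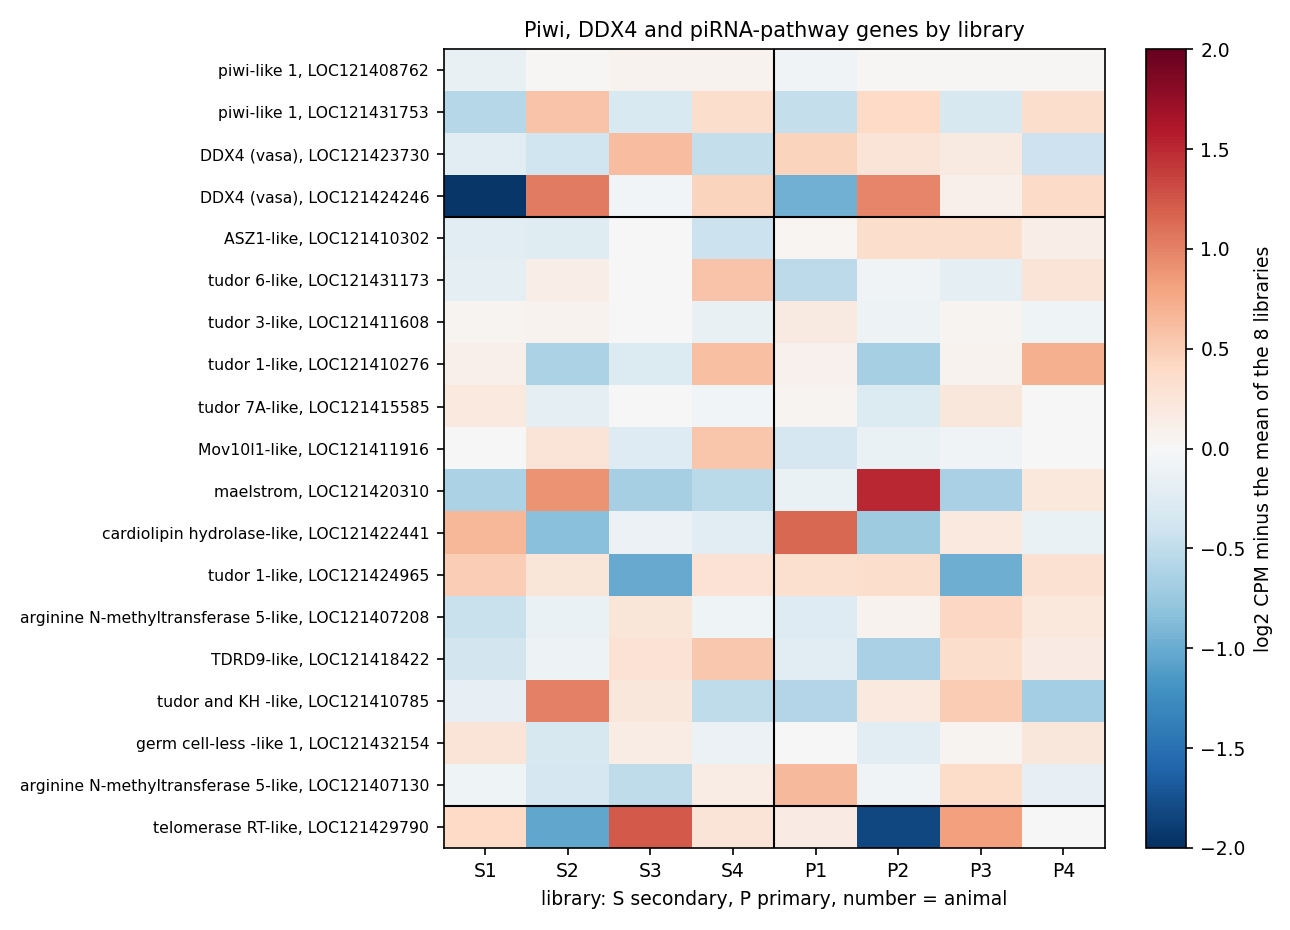
Log2 CPM of each gene minus its mean over the 8 libraries (color scale, red above and blue below), with secondary libraries S1 to S4 left and primary libraries P1 to P4 right. From the top are the piwi and vasa genes, the 14 piRNA partners and telomerase reverse transcriptase; the row of LOC121408762 is almost blank, while maelstrom LOC121420310 is red in S2 and P2.

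Of the related Argonaute and small RNA processing genes, which serve microRNA and siRNA pathways, all 11 passed the filter. None of them was called between the spine kinds, where 7.81% of all tested genes were. With the block ribonuclease 3-like LOC121429204 alone was called, higher in secondary spines by 0.47 on the log2 scale (edgeR adjusted p = 0.0107). That fit called 12.4% of all tested genes higher and 11.7% lower. Exportin-5-like LOC121419116, which exports microRNA precursors, averaged 41.2 ± 6.74 CPM in secondary and 40.6 ± 4.31 CPM in primary spines. Argonaute-2-like LOC121420475 averaged 31.7 ± 4.24 CPM in secondary and 23.7 ± 2.14 CPM in primary spines and missed the threshold (edgeR adjusted p = 0.148).

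A list of germ-line RNA regulators, matched by product name and not by a shown role beside nanos or vasa, included abundant transcripts. Of 25 such genes 19 passed the filter, with 1 called higher and 0 lower in secondary spines, where 5.88% and 1.93% of all tested genes were. The called gene was CUGBP Elav-like family member 1 LOC121406326, an RNA-binding regulator of splicing and translation. It averaged 61.1 ± 4.08 CPM in secondary and 27.5 ± 5.44 CPM in primary spines (log2 fold change 1.15 ± 0.16, edgeR adjusted p = 0.0039). Pumilio homolog 2-like LOC121417224, the partner of nanos in other animals, averaged 727.6 ± 47.8 CPM in secondary and 685.0 ± 50.3 CPM in primary spines (edgeR adjusted p = 0.764), although nanos-like itself had no reads. Staufen homolog 2-like LOC121429263 averaged 403.0 ± 62.8 CPM in secondary and 476.1 ± 89.1 CPM in primary spines (edgeR adjusted p = 0.542). The 2 genes named boule-like averaged at most 0.354 CPM in either spine kind. With the block 2 were called higher and 2 lower, where 12.4% and 11.7% of all tested genes were. Besides the gene above, a second CUGBP gene, LOC121406217, was called higher (0.81, edgeR adjusted p = 0.0131). The block also called Smaug homolog 1-like LOC121419364 (-0.35, edgeR adjusted p = 0.0210) and a cytoplasmic polyadenylation element-binding protein gene, LOC121412109 (-0.62, edgeR adjusted p = 0.0037), lower in secondary spines.

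None of the 30 other DEAD-box helicase genes was called between the spine kinds, where 7.81% of all tested genes were. The 2 most abundant per length were eukaryotic initiation factor 4A-I-like LOC121429444, at 216.0 ± 7.01 CPM in secondary and 280.1 ± 49.4 CPM in primary spines, and dbp2-like LOC121422281, at 714.6 ± 69.5 CPM in secondary and 567.7 ± 46.1 CPM in primary spines. The block called dbp2-like higher, by 0.33 on the log2 scale (edgeR adjusted p = 0.0324), where it called 12.4% of all tested genes higher.

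A list of telomere genes, matched by product name only, held 25 tested genes of 26, and their role at chromosome ends was not tested. Of the 25, 2 were called higher in secondary spines and 0 lower, where 5.88% and 1.93% of all tested genes were. The block called 5 higher and 1 lower, where it called 12.4% and 11.7% of all tested genes. Among them were EST1A-like LOC121406940 (log2 fold change 0.35) and a telomerase protein component 1-like gene, LOC121427381 (1.64), both higher, and GAR1-like LOC121411145 (-0.49). Both genes called without the block are named telomerase protein component 1-like, and their shared name makes the split of reads between copies uncertain. LOC121427455 averaged 6.52 ± 1.89 CPM in secondary and 1.92 ± 0.651 CPM in primary spines (log2 fold change 1.75, edgeR adjusted p = 0.0185). LOC121407166 averaged 45.1 ± 10.1 CPM in secondary and 24.1 ± 2.67 CPM in primary spines (0.91, edgeR adjusted p = 0.0217). Each of these 2 calls was lost on leaving out any of 5 of the 8 libraries, with edgeR adjusted p up to 0.0670 and 0.0691. Telomerase protein component 1-like LOC121424081, the most abundant with LOC121412153, averaged 116.2 ± 32.0 CPM in secondary and 71.3 ± 21.7 CPM in primary spines, and the block called it higher (0.71, edgeR adjusted p = 0.00109). LOC121412153 averaged 139.5 ± 14.6 CPM in secondary and 165.8 ± 20.8 CPM in primary spines (edgeR adjusted p = 0.371). Telomerase reverse transcriptase-like LOC121429790, the catalytic subunit, was named after its values were seen. It had 12.9, 4.78, 22.9 and 11.8 CPM in secondary libraries 1 to 4, against 10.97, 2.79, 17.4 and 9.72 CPM in primary libraries 1 to 4. Animal 2 was lowest and animal 3 highest in both spine kinds (edgeR adjusted p = 0.00122 between animals), and the spine kinds did not differ by the test (edgeR adjusted p = 0.856).

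Of 27 multipotency factor genes, 24 were tested and 1 was called higher and 0 lower in secondary spines, where 5.88% and 1.93% of all tested genes were. The block called 4 higher and 1 lower, where it called 12.4% and 11.7% of all tested genes. Those higher with the block were LOC121408306, Sox-2-like LOC121430133 and the POU domain genes LOC121420240 (0.44) and LOC121414231 (1.53), and PR domain zinc finger protein 14-like LOC121423676 was lower (-0.82). The gene called without the block was the brain-specific homeobox/POU domain protein 3-like gene LOC121408306, a POU transcription factor. It averaged 42.7 ± 5.97 CPM in secondary and 14.2 ± 2.25 CPM in primary spines (log2 fold change 1.59 ± 0.18, edgeR adjusted p = 0.00164). In vertebrates this POU class is known from sensory neurons. Sox-2-like LOC121430133 averaged 741.7 ± 124.6 CPM in secondary and 541.4 ± 46.9 CPM in primary spines; it missed the threshold (edgeR adjusted p = 0.104) and was called higher with the block (0.44, edgeR adjusted p = 0.0179). Max-like protein X LOC121411609, on the list by its name only, averaged 29.8 ± 2.27 CPM in secondary and 35.1 ± 2.87 CPM in primary spines (edgeR adjusted p = 0.392). The 2 genes named lin-28 homolog averaged at most 0.171 CPM in either spine kind.

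Genes of DNA replication and proliferation, a measure of dividing cells, held 41 tested genes of 44. None was called between the spine kinds, where 7.81% of all tested genes were. Between animals 19 were called (46.3%, against 37.0% of all tested genes). With the block 2 were called higher and 1 lower in secondary spines, where 12.4% and 11.7% of all tested genes were. The 2 are DNA topoisomerase 2-alpha-like LOC121413434 (log2 fold change 0.91) and LOC121413465 (0.61), and the other is the ribonucleotide reductase gene LOC121423919 (-0.43). Cyclin-D1-like LOC121405827 averaged 520.0 ± 54.2 CPM in secondary and 538.8 ± 48.2 CPM in primary spines. Proliferating cell nuclear antigen-like LOC121431754 averaged 77.8 ± 10.3 CPM in secondary and 76.0 ± 3.05 CPM in primary spines.

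Markers of gametes and meiosis varied widely in level. Of 21 meiosis genes, 5 passed the filter and 9 had 10 or fewer reads over the 8 libraries together. Of the 5 tested, 1 was called higher and 0 lower in secondary spines, where 5.88% and 1.93% of all tested genes were. SYCP1-like LOC121405890 and SPO11-like LOC121431385, proteins of meiotic chromosomes, had 0 CPM in both spine kinds. The 1 meiosis-named gene called, meiosis expressed gene 1 LOC121410537, averaged 96.1 ± 20.4 CPM in secondary and 32.5 ± 17.2 CPM in primary spines (log2 fold change 1.56 ± 0.36, edgeR adjusted p = 0.0336). That call was lost on leaving out any of 6 of the 8 libraries, with edgeR adjusted p up to 0.0971. HORMA domain-containing protein 1-like LOC121421720 averaged 9.88 ± 1.12 CPM in secondary and 8.84 ± 3.04 CPM in primary spines. A list of 15 genes for gamete products, which has no test, summed to 1644 to 2470 CPM per library in secondary and 1670 to 4019 CPM in primary spines. Most of that sum came from the major yolk protein-like genes LOC121428736, at 1167 ± 264 CPM in secondary and 1714 ± 706 CPM in primary spines, and LOC121428788, at 554.9 ± 161 CPM in secondary and 816.7 ± 352 CPM in primary spines. Major yolk protein is known in sea urchins from somatic tissues of both sexes as well as from gonads. The genes named for speract receptors, which bind an egg peptide on sperm, reached 116.7 ± 9.57 CPM in secondary and 78.5 ± 16.4 CPM in primary spines at LOC121422745, and LOC121422964 averaged 61.7 ± 16.5 CPM in secondary and 59.1 ± 21.8 CPM in primary spines. The 7 genes of the list apart from the yolk protein and speract receptor genes, named for bindin, egg jelly receptors, ovoperoxidase and a zona pellucida-like protein, together had 28 reads in secondary and 25 reads in primary libraries. The synaptonemal complex protein 3-like gene LOC121421732, named after its values were seen, had 21.8 CPM in secondary and 17.3 CPM in primary spines of animal 4 and at most 0.527 CPM in every other library. In both spine kinds animal 4 lay next below animal 2 for LOC121431753 and LOC121424246, and was the lowest for vasa LOC121423730. For LOC121408762 animal 4 had 168.3 CPM in secondary spines, against 168.8 CPM in animal 3. In primary spines it had 162.6 CPM, against 163.8 CPM in animal 2. Whether germ cells contribute to the piwi and vasa levels was not tested.

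Over the 8 libraries, the genes whose log2 CPM followed LOC121408762 most closely were hydroxyacid oxidase 1-like LOC121407912 (Pearson correlation 0.986), LTV1 LOC121430854 (0.970), LRRC15-like LOC121422284 (0.960), a mitochondrial carnitine/acylcarnitine carrier gene LOC121411920 (0.954) and the C6orf89 homolog LOC121422040 (0.950). The 99th percentile over the 10241 genes compared was 0.855. The 8 libraries share 4 animals, and the piwi-like gene itself hardly varied, so the correlations describe small deviations that are led by the low values of animal 1.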

How the data were processed

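Libraries were made from poly-A RNA after TriZol extraction, per the labels' protocols. HISAT2 2.0.5 and featureCounts appear in the submitters' processing notes. Strand setting and multi-mapping rules are not given in the sources used here. How reads were split between genes of 1 name (both piwi-like and both DDX4 genes) is therefore uncertain. The deposited counts are whole reads per gene, per the file headers. The deposited FPKM equal count over gene length and a library constant, which was 1.06 to 1.08 of the read total for secondary and 0.905 to 0.994 of it for primary libraries. The deposited FPKM are thus scaled for more than depth. Coordinates are those of the files, which matched assembly Lvar_3.0 for all 26814 genes.

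Counts were tested with edgeR 4.0.16 (R 4.3.3; glmQLFit with robust estimation, glmQLFTest, TMM, filterByExpr), group as the only term, over 16788 genes; log2 fold changes are secondary minus primary. Differences between animals were tested with an F test (3 degrees of freedom) of the replicate number in a fit with group and number. On simulated counts that test gave slightly too many very small p-values. Deviations from group means correlated at 0.733 to 0.811 between libraries of the same number and at -0.317 to -0.200 otherwise, and the design text says both spine kinds came from the same animals, so numbers pair libraries. Blocked values are given where they change a call. Counts of libraries in a group differed by far more than sampling noise (mean chi-square per gene 35.2 to 57.3), so none was a duplicate. The 4 libraries of a spine kind come from 4 animals. P-values without the block set the difference between spine kinds against the spread between these libraries, and they do not use the pairing. In the fits with the replicate number, differences between animals are taken out. Their p-values rest on how much the difference between spine kinds varies from animal to animal.

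Members and lists were chosen with earlier results of these data known. Lists were trimmed by name after reading the matches; a list of gonad markers was narrowed to gamete products after its counts were seen and has no test, and skeletal matrix genes were added last. Every member is named, as are, per list, up to 3 called genes by smallest p and the 2 most abundant in FPKM, and the 5 genes most like LOC121408762 with a mean of 5 CPM or more (prior count 2). Others were chosen after their values were seen, including those named for a call under the block. Alternatives were the replicate block, DESeq2 1.42.0, RLE and library size scaling, no filter, limma 3.58.1 on log2(FPKM + 0.1), a gene length correction, and leaving out libraries or animals.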

Additional observations from a re-analysis of the deposited data

Results flagged for a closer look

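Within groups of 4 libraries, 6 of 70 groups examined had 1 library far from the other 3, by the gap to its nearest neighbor over the group's range. Chance marks about 1 in 20 groups if groups are independent, which these are not. LTV1 and the C6orf89 homolog were chosen for following LOC121408762, and the flags of all of these genes are low values of animal 1. Piwi-like LOC121408762 had 152.2 CPM in primary library 1, against 162.6 to 163.8 CPM in the other primary libraries, a small gap in a gene of little spread. Maelstrom LOC121420310 had 46.5 CPM in secondary library 2, against 15.9 to 17.3 CPM in the others. Pumilio homolog 2-like LOC121417224 had 759.8 CPM in primary library 4, against 651.8 to 667.0 CPM. Telomerase protein component 1-like LOC121427455 had 2.89 CPM in primary library 2, against 1.51 to 1.71 CPM. LTV1 LOC121430854 had 10.1 CPM in primary library 1, against 16.9 to 18.0 CPM. The C6orf89 homolog LOC121422040 had 2.91 CPM in secondary library 1, against 6.50 to 6.65 CPM in the others. The causes were not tested.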

How the results depend on the processing

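Of the piwi and vasa genes, none was called between spine kinds in any of 21 alternatives. Their signs were not stable, apart from vasa LOC121423730, which was negative throughout (-0.51 to -0.03). Log2 fold changes of LOC121408762 (0.005 as reported) were -0.00074 in DESeq2 with the block, -0.0037 without the filter, -0.0061 in limma, -0.13 with the length correction, -0.13 with that and the block, and -0.021 to 0.052 on leaving out a library or animal. LOC121431753 gave -0.16 to 0.21 and LOC121424246 -0.50 to 0.28 on leaving one out, and LOC121424246 0.095 with library size scaling. That scaling moved the median of all genes to 0.14, against -0.03, and turned DDX42 to 0.098, DDX43 to 0.017, LOC121411608 to 0.15, LOC121405827 to 0.11, LOC121430854 to 0.018 and LOC121422040 to 0.15. The length correction without and with the block turned LOC121419116 (-0.084, -0.093), LOC121417224 (-0.10, -0.10), LOC121431754 (-0.013, -0.020) and LOC121422040 (0.071, 0.064). LOC121411920 was -0.0084 with the block, -0.011 in DESeq2 with the block, -0.0010 without the filter, -0.019 in limma and -0.00098 with the length correction and the block. Leave-out ranges that crossed 0 were -0.20 to 0.079 for DDX42, -0.35 to 0.13 for DDX43, -0.11 to 0.16 for DDX49, -0.082 to 0.044 for LOC121411608, -0.083 to 0.094 for LOC121419116, -0.12 to 0.015 for LOC121405827, -0.066 to 0.099 for LOC121431754, -0.31 to 0.10 for LOC121430854, -0.13 to 0.16 for LOC121411920, -0.19 to 0.21 for LOC121422040 and -1.08 to 0.090 for maelstrom LOC121420310. In all, 77 of 630 values of the 30 genes not called changed sign, and 31 of the 630 passed the threshold. The 5 called list genes did not change sign in 105 values, and 16 of those were no longer called.

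Genes called higher in secondary spines were 987 as reported, 2077 with the replicate block, 2106 in DESeq2 with the block and 1941 with the length correction and block. They were 718 to 877 without 1 library, and 1402 to 1826 with the block and without 1 animal. Those called lower were 324 as reported, 1964 with the block, 1990 in DESeq2 with the block and 2421 with the length correction and block. They were 767 in DESeq2 and 168 with library size scaling. Without 1 library they were 158 to 254, and with the block and without 1 animal 977 to 1395. The lowest count of each came without secondary library 4. Members called higher were 0 as reported and 1, DDX46, with the block, DESeq2, both, library size scaling, and the length correction with the block; leaving one out gave 0 to 1. List genes called higher were 5, 16 with the block, 10 in DESeq2, 16 in both and 12 with length and block. They were 2 to 4 without 1 library, and 9 to 12 with the block and without 1 animal. List genes called lower were 0 (6 at an unadjusted p below 0.05), 7 with the block, 2 in DESeq2, 6 in both and 11 with length and block. They were 2 under the length correction, 0 without 1 library, and 2 to 4 with the block and without 1 animal. Between animals 6206 genes were called, and 3911 to 4998 without 1 animal; of the members 5, and 3 to 4. The causes were not tested. Depth limits the nanos genes and vasa LOC121424246, with 18 reads in secondary library 1; reads are not independent molecules, so limits cover counting error only.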
